A study of Mus musculus with 6 samples.

Results

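The 9 genes described here encode enzymes, and a scaffold, that add phosphate groups to the inositol head of membrane phosphoinositides or take them off: *Inpp5d*, *Inpp4a*, *Inpp4b*, *Pikfyve*, *Fig4*, *Vac14*, *Pik3c3*, *Pip4k2a* and *Pik3cd*. They were taken by exact symbol from a table of read counts for 22601 genes, and all 9 were found and tested. The rule used their symbols and no measured value. RNAseq, which counts sequenced RNA fragments per gene, covered 3 WT and 3 *Slc37a2* KO libraries. The question was whether RNA levels differed in osteoclasts, the cells that resorb bone, that lack the sugar transporter Slc37a2 of their secretory lysosomes.

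The *Slc37a2* KO mice were homozygous for the gene-trap allele *Slc37a2* tm2a(KOMP)Wtsi in all tissues, derived from a single embryonic stem cell clone and kept on C57BL/6N, with WT littermates as controls. According to the labels, bone marrow macrophages of both genotypes were turned into osteoclasts over 5 days with RANKL at 10 ng/ml and M-CSF at 2 ng/ml, the cytokines that drive osteoclast formation and survival. The study's results also describe RNAseq of osteoclasts from both genotypes, whereas its methods describe RNA from whole long bones. The column headings give each library an animal number, the letter F, read here as female, and an age of 11 weeks. The study's RNAseq methods name mice of both sexes. Libraries are named here by animal number: K090, L080 and L082 for WT, and K089, L078 and L081 for *Slc37a2* KO.

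Phosphoinositides are membrane lipids whose inositol ring carries phosphates in different positions, and each form recruits its own set of proteins. At the osteoclast plasma membrane, class I PI 3-kinases act downstream of the M-CSF receptor and integrins, and 5-phosphatases and 4-phosphatases stepwise remove the phosphates again. On endosomes and lysosomes, phosphatidylinositol 3-phosphate and the bisphosphate made from it by Pikfyve control membrane fusion, fission and acidification, and loss of Pikfyve, Fig4 or Vac14 leaves cells with swollen vacuoles.

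The libraries held 27552183 to 42522292 counts. Levels are given as scaled CPM, the read counts relative to library size (CPM) after edgeR's TMM scaling between libraries (factors 0.931 to 1.06). *Slc37a2* was at 1857, 2151 and 2440 CPM in WT and at 45.3, 32.1 and 36.9 CPM in *Slc37a2* KO libraries, so every library matched its label. The 12 osteoclast markers, *Ctsk*, *Acp5* and *Ocstamp* among them, summed to 41924 to 59896 CPM in WT and 46535 to 73358 CPM in *Slc37a2* KO libraries. The 12 macrophage markers summed to 4229 to 5049 CPM in WT and 4409 to 5052 CPM in *Slc37a2* KO libraries. The 12 stromal and osteoblast markers summed to 1055 to 2046 CPM in WT and 740 to 2373 CPM in *Slc37a2* KO, and all 9 of them that were tested had a lower estimate in *Slc37a2* KO, with 0 called. The 6 of 8 neutrophil markers in the table summed to 0.726 to 1.40 CPM in WT and 0.337 to 0.588 CPM in *Slc37a2* KO, which did not overlap, and the 4 of 8 lymphoid markers to 3.24 to 4.80 CPM over all libraries. Only 2 of 8 erythroid markers were in the table, at no more than 0.0956 CPM. *Slc37a2* KO library L078 stood with WT libraries K090 and L080, and WT library L082 with the other 2 *Slc37a2* KO libraries, for osteoclast markers and for several of the 9 genes, so the range of each estimate with every library left out in turn is given beside it.

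No difference between genotypes was detected in any of the 9 genes. With p-values from the quasi-likelihood test of edgeR, adjusted by Benjamini-Hochberg over all tested genes, 0 of 9 were called at a limit of 0.05, where the background is 1 of 13483 tested genes (0.00742%), *Slc37a2* itself. At an unadjusted p below 0.05 it was 0 of 9, beside 96 tested genes (0.712%), and the Wald test of DESeq2 and the likelihood ratio test of edgeR also called 0 of 9. In 0 of 9 did the groups of libraries separate, beside 581 tested genes (4.31%). Leaving out L078 raised the tested genes at an unadjusted p below 0.05 from 96 to 2732, with 0 of the 9 among them, and 4 of 9 then separated, as did 41.6% of all tested genes. Without L082 the number was 270, 1 of the 9 among them (*Pik3cd*), and 3 of 9 separated, as did 16.4% of all tested genes. Groups of fewer libraries separate more easily. No left-out library brought any of the 9 to an adjusted p below 0.05. The estimates were lower in *Slc37a2* KO for 6 genes and higher for 3, with a median log2 fold change of −0.03 beside −0.02 over all tested genes. For 8 of 9 the estimate was smaller than the SD between libraries of a genotype, and for *Pik3cd* it was 1.00 times that SD. In bulk RNA, a lower share of cells that express a gene and less of its RNA per cell cannot be told apart.

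A p above the threshold does not show equal levels, so the 95% confidence intervals were read as well. All 9 intervals lay inside −1 to 1, as did 78.6% of those of the tested genes. All 9 also lay inside a change of 1.5 times in either direction, as did 61.1% of all tested genes and 84.4% of the 8204 genes with a mean at or above that of *Inpp4a*, the lowest of the 9. With a library left out, 6 (without L078) to 9 (without K089) of the 9 did so. The widest intervals, those of *Inpp4a* and *Pikfyve*, still allowed a fall to 0.677 and 0.688 times the WT level.

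**Figure D1:**
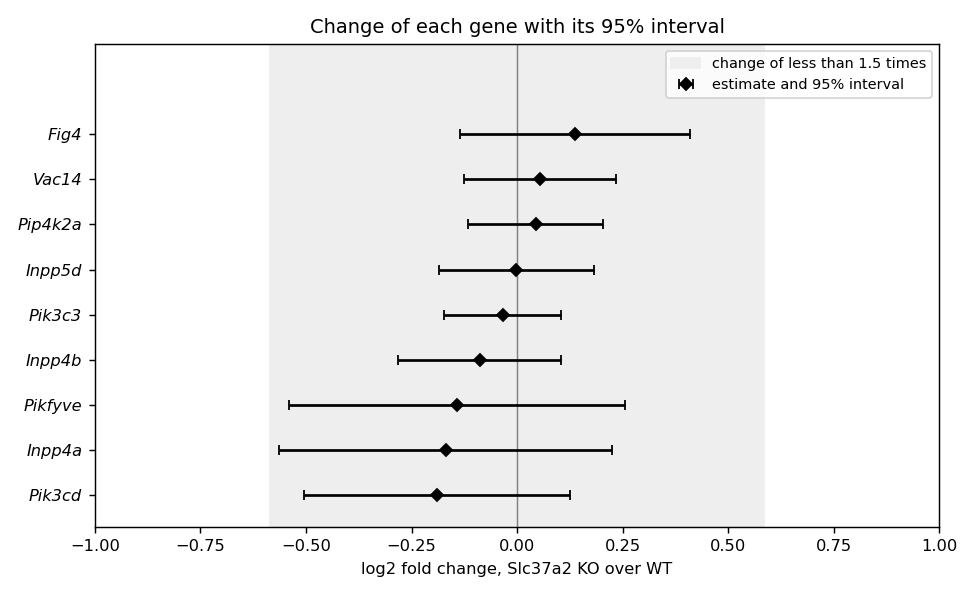
Log2 fold change of each of the 9 genes, *Slc37a2* KO over WT, as a diamond with its 95% interval from edgeR's quasi-likelihood fit (3 libraries per genotype). The shaded band marks a change of less than 1.5 times; every interval includes 0 and stays inside the band.

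*Inpp5d* encodes SHIP1, the 5-phosphatase of blood cells that turns the product of class I PI 3-kinases into phosphatidylinositol 3,4-bisphosphate and restrains osteoclast formation. It lies on chromosome 1 (GRCm38, chr1:87620312-87720507, plus strand). It stood at 253.1, 263.0 and 231.0 CPM in WT and at 262.1, 238.3 and 245.8 CPM in *Slc37a2* KO libraries, the highest of the 9. The genotypes overlapped, with means of 249 ± 16.4 CPM (SD, n = 3) in WT and 249 ± 12.2 CPM (SD, n = 3) in *Slc37a2* KO. Its log2 fold change was −0.00 (SE 0.08, 95% interval −0.19 to 0.18, edgeR adjusted p = 0.997), and −0.03 (without L082) to 0.04 (without L080) with each library left out in turn. These values rest on 6952 to 10736 counts per library.

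The promoter of *Inpp5d* is shown because it holds a match to the PU.1 motif GAGGAAGT, the letters bound by a factor that myeloid cells need. The window (chr1:87620281-87620310, GRCm38.p6, plus strand, RefSeq) has the match in capitals, starting 20 bases before the gene start.
Inpp5d: gtttctataatGAGGAAGTtctgtgcagct
This motif, searched on both strands, is in 3.20% of 32851 promoters of 300 bases (250 before to 50 after the start). A match is a description of letters, and binding was not measured.

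*Inpp4a* and *Inpp4b* encode the 4-phosphatases that take the next phosphate off, leaving phosphatidylinositol 3-phosphate. *Inpp4b* is known as a brake on osteoclast differentiation in mice. Both use the phosphatase signature of a cysteine and an arginine with 5 residues between them, as does *Fig4*, a phosphatase of another family. The coding bases of that signature (GRCm38, GENCODE) are shown to compare the 3 catalytic sites, with the codons of the cysteine and the arginine in capitals; they are codons 895 to 901 of *Inpp4a*, 845 to 851 of *Inpp4b* and 486 to 492 of *Fig4*.
Inpp4a: TGCaagagtgccaaggacCGC
Inpp4b: TGTaaaagtgccaaagacAGG
Fig4: TGTgtggactgtttggatCGC
The *Inpp4a* and *Inpp4b* sites differ at 5 of 21 bases, and the *Fig4* site differs from them at 12 and 15. The *Inpp4a* and *Inpp4b* proteins share 43.7% of aligned residues. Their whole transcripts, a single one compared per gene, share no run of identical bases longer than 21, which bears on whether their reads can be told apart.

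*Inpp4a* (chr1:37299865-37410736, plus strand) had the lowest level of the 9, at 14.3, 14.8 and 11.0 CPM in WT and 10.2, 13.6 and 11.8 CPM in *Slc37a2* KO libraries. The low WT library, L082, lay among the *Slc37a2* KO values, and the high *Slc37a2* KO library, L078, near the WT values. *Inpp4a* had a log2 fold change of −0.17 (SE 0.16, 95% interval −0.56 to 0.23, edgeR adjusted p = 0.969), and with a library left out it ran from −0.28 (L078) to −0.05 (K089), with −0.27 for L082. *Inpp4b* (chr8:81342556-82127914, plus strand) was at 38.4, 36.5 and 36.0 CPM in WT and 35.1, 37.5 and 31.7 CPM in *Slc37a2* KO libraries. Its WT libraries lay close together, at 37.0 ± 1.22 CPM (SD, n = 3), and overlapped the wider spread of *Slc37a2* KO, at 34.8 ± 2.93 CPM (SD, n = 3). For *Inpp4b* the log2 fold change was −0.09 (SE 0.08, 95% interval −0.28 to 0.10, edgeR adjusted p = 0.969), and it ran from −0.15 without L078 to −0.01 without L081.

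*Pik3cd* encodes the delta catalytic subunit of class I PI 3-kinase, which is mainly found in white blood cells and makes the lipid that SHIP1 degrades. It lies at chr4:149649168-149702571 on the minus strand. Its levels were 126.8, 121.8 and 90.9 CPM in WT and 94.9, 103.2 and 99.5 CPM in *Slc37a2* KO libraries. WT library L082 was the lowest of all 6. The WT mean was 113 ± 19.4 CPM (SD, n = 3) and the *Slc37a2* KO mean 99.2 ± 4.14 CPM (SD, n = 3). The log2 fold change of −0.19 was the furthest from 0 among the 9 genes (SE 0.13, 95% interval −0.50 to 0.12, edgeR adjusted p = 0.969). With a library left out it ran from −0.30 (L082) to −0.10 (K090). Without L082 the interval, −0.47 to −0.13, no longer included 0, yet the edgeR adjusted p was 0.825. Its protein shares 33.3% to 57.2% of aligned residues with those of *Pik3ca*, *Pik3cb* and *Pik3cg*. The transcripts, a single one compared per gene, hold no identical run over 20 bases.

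*Pip4k2a* encodes a kinase that turns phosphatidylinositol 5-phosphate into phosphatidylinositol 4,5-bisphosphate. It lies at chr2:18842255-18998126 on the minus strand. It was at 90.8, 92.1 and 83.6 CPM in WT and 94.9, 86.9 and 93.1 CPM in *Slc37a2* KO libraries, which overlapped. The log2 fold change was 0.04 (SE 0.07, 95% interval −0.12 to 0.20, edgeR adjusted p = 0.969), and it ran from 0.03 without L082 to 0.08 without L078. The protein shares 78.3% and 65.3% of aligned residues with those of *Pip4k2b* and *Pip4k2c*, and the transcripts, a single one compared per gene, hold no identical run over 20 bases.

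*Pik3c3* encodes Vps34, the class III PI 3-kinase that makes phosphatidylinositol 3-phosphate on endosomes and autophagosomes. It lies at chr18:30272747-30348126 on the plus strand. It was the steadiest of the 9, at 68.6, 68.7 and 63.5 CPM in WT and 63.8, 66.7 and 65.6 CPM in *Slc37a2* KO libraries. All 6 libraries lay within 0.11 on the log2 scale, and 3.23% of tested genes had a narrower range. Its log2 fold change was −0.03 (SE 0.06, 95% interval −0.17 to 0.11, edgeR adjusted p = 0.969), and it ran from −0.05 without L078 to 0.00 without K089.

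*Pikfyve*, *Fig4* and *Vac14* encode 3 proteins of a single complex: Pikfyve adds a 5-phosphate to phosphatidylinositol 3-phosphate, Fig4 takes it off, and Vac14 is the scaffold that holds both. *Pikfyve* (chr1:65186683-65278695, plus strand) was at 73.6, 67.7 and 52.1 CPM in WT and 52.1, 69.3 and 53.7 CPM in *Slc37a2* KO libraries. Libraries K090, L080 and L078 were high and the other 3 low, so that each genotype held both levels. The log2 fold change was −0.14 (SE 0.16, 95% interval −0.54 to 0.26, edgeR adjusted p = 0.969), and with a library left out it ran from −0.29 (L078) to −0.04 (K090), with −0.25 for L082 and −0.05 for K089.

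*Fig4* (chr10:41188172-41303260, minus strand) ran the other way across libraries, at 49.5, 46.0 and 56.6 CPM in WT and 60.1, 48.8 and 58.5 CPM in *Slc37a2* KO. The 3 libraries that were high for *Pikfyve* were the 3 lowest for *Fig4*. For *Fig4* the log2 fold change was 0.14 (SE 0.11, 95% interval −0.14 to 0.41, edgeR adjusted p = 0.969), and it ran from 0.07 without L080 to 0.25 without L082, with 0.23 without L078. *Vac14* (chr8:110618585-110720398, plus strand) was at 85.5, 87.8 and 89.1 CPM in WT and 98.4, 83.2 and 90.8 CPM in *Slc37a2* KO libraries. The WT values all lay between the lowest and the highest *Slc37a2* KO value, and the log2 fold change was 0.05 (SE 0.07, 95% interval −0.13 to 0.23, edgeR adjusted p = 0.969), and it ran from 0.01 without K089 to 0.11 without L078, with 0.09 without L082.

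The start of *Vac14* is shown because it was the single one of the 9 with a match to CACGTG, the E-box of the MiT and TFE factors that drive lysosomal genes. The window (chr8:110618586-110618615, GRCm38.p6, plus strand, RefSeq) has the match in capitals, starting 31 bases after the RefSeq start of the gene, which lies upstream of the GENCODE start given above.
Vac14: tgctcgcggcgtCACGTGacctgagtaaca
The same 6 letters, which read alike on both strands, are in 7.15% of all promoters. RefSeq promoters, 12 in all, were matched for 8 of the 9 genes, all but *Pik3c3*. The AP-1 motif TGACTCA (5.20% of all promoters, both strands) was in 0 of these 12, and the NFAT core TGGAAA (21.4% of all promoters, both strands) was in 4 of 12, belonging to *Inpp4a* and *Vac14*.

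**Figure D2:**
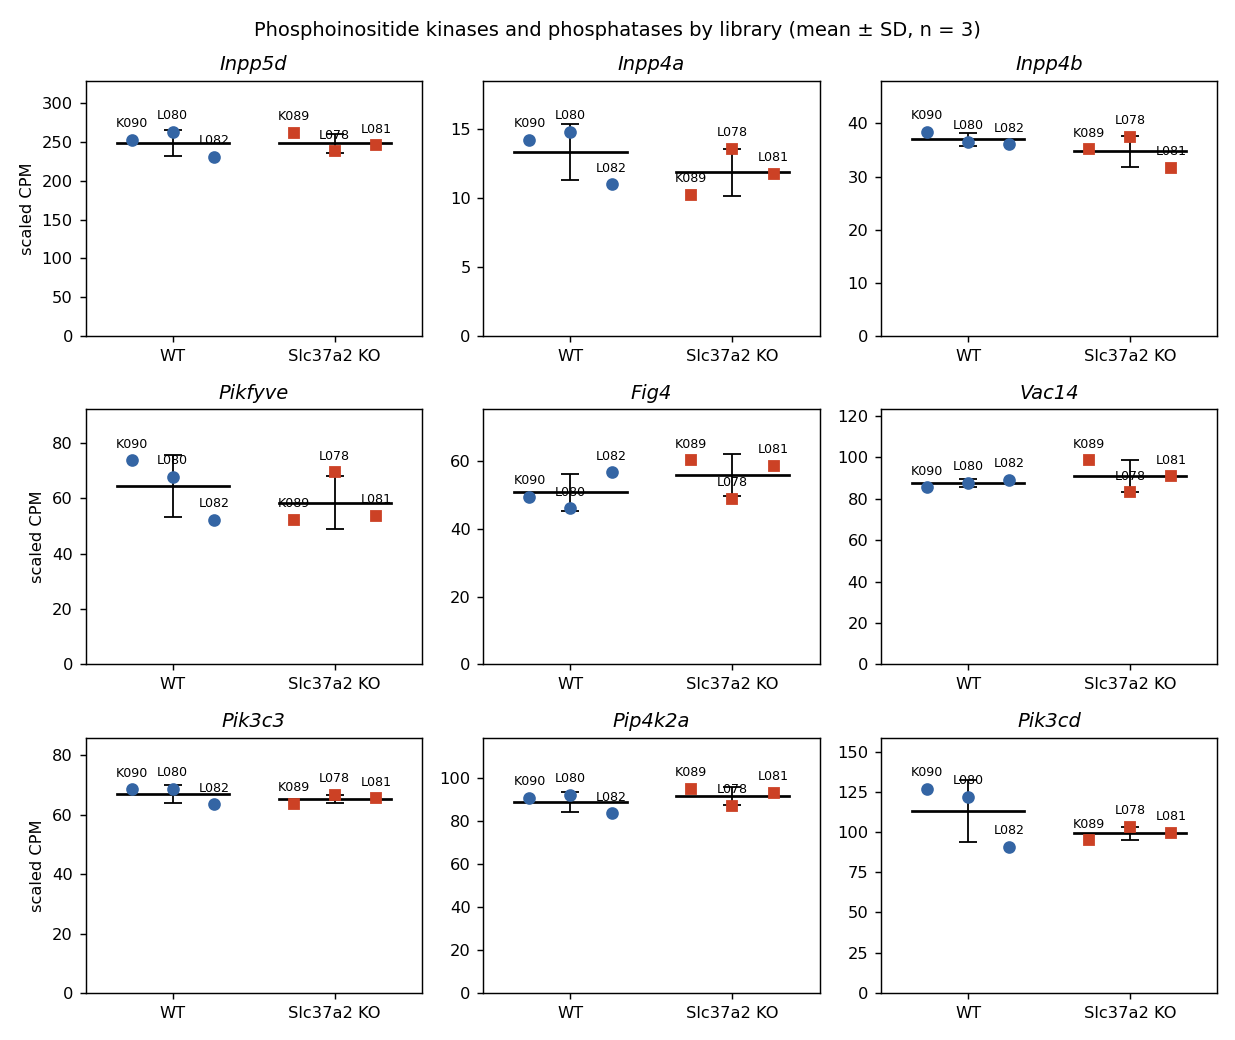
Scaled CPM of each of the 9 genes in the 6 libraries, from 0, with WT as blue circles and *Slc37a2* KO as red squares, each labelled by animal number; bars give the mean and SD (n = 3). In every panel the points of the genotypes overlap. WT library L082 is the lowest of its genotype for *Pikfyve*, *Pik3cd*, *Inpp4a*, *Inpp4b*, *Inpp5d*, *Pik3c3* and *Pip4k2a*.

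*Inpp4a*, *Pikfyve* and *Pik3cd* varied more among libraries than the others. Their log2 range over the 6 libraries was 0.53, 0.50 and 0.48, above the median of 0.42 over all tested genes. The other 6 lay between 0.11 and 0.39. Over the 8204 genes with a mean at or above that of *Inpp4a*, the median was 0.29. *Fig4*, at 0.39, also lay above that median. For *Inpp4a*, *Pikfyve* and *Pik3cd*, *Slc37a2* KO library L078 was the highest of its genotype and WT library L082 the lowest of its own. The same held for *Inpp4b* and *Pik3c3*. Osteoclast markers took the opposite order, with sums of 41924, 54355 and 59896 CPM in K090, L080 and L082 and of 73358, 46535 and 67142 CPM in K089, L078 and L081. All 12 osteoclast markers had a higher estimate in *Slc37a2* KO and 0 of 12 were called. Other lists were also one-sided, with 0 called. Estimates were higher for 3 of 12 macrophage markers, 0 of 12 interferon response genes and 0 of 10 proliferation genes. K090, L080 and L078 were the lowest 3 libraries for 9 of the 12 osteoclast markers. They were the highest 3 for 10 of the 12 macrophage markers and for all 12 interferon response genes. The exceptions among macrophage markers were *Cd68*, for which they were the lowest 3, and *Csf1r*. The 12 interferon response genes summed to 350, 227 and 124 CPM in WT and to 104, 263 and 137 CPM in *Slc37a2* KO libraries. The part of these cell states in the spread of *Pikfyve*, *Pik3cd*, *Inpp4a* and *Fig4* was not tested.

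The tested genes most like these 3 were found by the root mean square distance between log2 CPM values centred on their mean over the 6 libraries. For *Pikfyve* they were *BC005537* (0.02), *Acp2*, a lysosomal acid phosphatase (0.02), and *Mis18a* (0.02). For *Pik3cd* they were *Gm36298* (0.02), *Avpi1* (0.03) and *Rgs2*, a regulator of G protein signalling (0.04). For *Inpp4a* they were *Pygl*, liver glycogen phosphorylase (0.03), *Phka2*, a subunit of phosphorylase kinase (0.03), and *Abhd4* (0.03).

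Ratios within a library do not depend on the scaling between libraries, and 7 ratios of opposed or consecutive enzymes were compared. *Pikfyve* over *Fig4*, the kinase over the phosphatase of the same lipid, was 1.49, 1.47 and 0.920 in WT and 0.868, 1.42 and 0.918 in *Slc37a2* KO libraries. The difference of the log2 ratios was −0.28, smaller than the SD between libraries of 0.39 (exact permutation test, two-sided, p = 0.2, and 0.583 adjusted over the 7 ratios). With a library left out it was −0.51 (L082), −0.50 (L078), and between −0.19 and −0.14 for each of the other 4. *Pik3cd* over *Inpp5d*, the maker over the remover of the same lipid, was 0.501, 0.463 and 0.394 in WT and 0.362, 0.433 and 0.405 in *Slc37a2* KO libraries. Its log2 difference was −0.17, close to the SD between libraries of 0.16 (exact permutation test, two-sided, p = 0.3, adjusted 0.583), and it ran from −0.27 without L082 to −0.10 without K090. The other 5 ratios differed by −0.19 to 0.14 on the log2 scale with overlapping groups (exact permutation tests, two-sided, adjusted p from 0.583 to 0.6). Of these, *Pikfyve* over *Vac14* differed by −0.19 and moved most, from −0.38 without L078 and −0.35 without L082 to −0.06 without K089. With 3 libraries against 3 this test cannot give a p below 0.1.

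**Figure D3:**
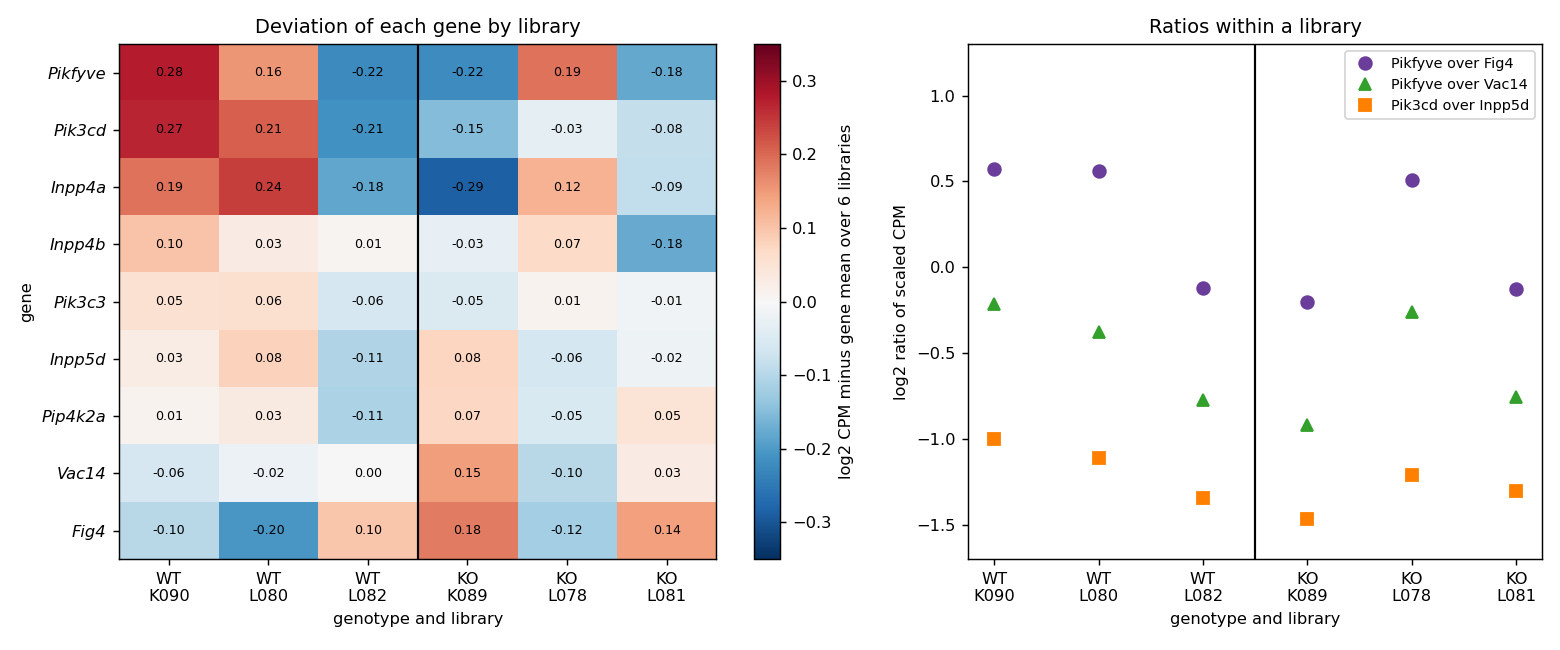
Left, log2 CPM of each of the 9 genes in each library minus the gene's mean over the 6 libraries, from blue (lower) to red (higher); right, log2 ratios of scaled CPM within each library for *Pikfyve* over *Fig4*, *Pikfyve* over *Vac14* and *Pik3cd* over *Inpp5d*. A line parts WT from *Slc37a2* KO; libraries K090, L080 and L078 share the high *Pikfyve* over *Fig4* ratio, from 0.51 to 0.57 on the log2 scale.

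Levels of different genes were compared per kilobase of annotated exon, since longer transcripts give more counts. In WT, *Inpp5d* led at 50.0 ± 3.28 CPM per kb (SD, n = 3). *Vac14* at 28.5 ± 0.601 and *Pip4k2a* at 25.5 ± 1.33 CPM per kb followed, with library ranges over both genotypes that overlapped (27.1 to 32.1 and 24.0 to 27.3). *Pik3cd* was next at 21.3 ± 3.65 CPM per kb, and its range of 17.1 to 23.8 met that of *Fig4*, 14.0 to 18.3. *Fig4* at 15.4 ± 1.65 and *Pik3c3* at 15.2 ± 0.678 CPM per kb could not be ordered. The lowest 3 did not overlap each other: *Pikfyve* at 5.65 ± 0.973, *Inpp4b* at 3.66 ± 0.121 and *Inpp4a* at 1.73 ± 0.266 CPM per kb. These lengths join the exons of all annotated transcripts. With only the transcript of the longest coding sequence, *Pik3c3* rose to 20.5, above *Fig4* at 15.4. The lowest 3 then had WT means of 9.71, 8.42 and 4.55 CPM per kb. The library ranges of *Pikfyve* and *Inpp4b* overlapped (7.84 to 11.1 and 7.21 to 8.74), so that these could not be ordered. On that length the range of *Pik3cd*, 18.5 to 25.8 CPM per kb, also met those of *Pip4k2a* and *Pik3c3*. The *Inpp4a* transcript so chosen held 2934 bases, its coding sequence alone, beside 7717 bases of joined exons, which raises its level per kb.

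The other genes of the pathway were followed in 6 lists of 70 symbols, of which 65 were tested. Of these 65 genes, 34 had a higher and 31 a lower estimate in *Slc37a2* KO, 0 were called, 0 had an unadjusted p below 0.05, and the median log2 fold change was 0.00. For 62 of 65 the 95% interval lay inside −1 to 1, beside 78.6% of all tested genes. In 1 of 65 the groups of libraries did not overlap, beside 4.31% of all tested genes. Over all tested genes, 5899 estimates were higher and 7584 lower in *Slc37a2* KO. *Pik3c2b* (1 to 4 counts per library) and *Mtmr7* (2 to 11 counts) were too low to test, *Pik3c2g* had no row, and the remaining 2 symbols, *Tmem55a* and *Tmem55b*, are older names of listed genes.

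Among the other class I PI 3-kinase subunits and adaptors, 5 of 9 were higher and 4 lower, with a median log2 fold change of 0.04. The lowest was *Pik3cg*, the gamma catalytic subunit, at 48.0, 42.9 and 23.2 CPM in WT and 19.9, 44.8 and 24.8 CPM in *Slc37a2* KO libraries (log2 fold change −0.35, edgeR adjusted p = 0.969). It split the libraries as *Pikfyve* did, with K090, L080 and L078 high. The highest was *Pik3ap1*, an adaptor of PI 3-kinase, at 532, 497 and 732 CPM in WT and 865, 478 and 791 CPM in *Slc37a2* KO libraries (log2 fold change 0.28, edgeR adjusted p = 0.969), and the same 3 libraries were its lowest.

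Of the class II and III kinases and the partners of Vps34, 2 of 6 were higher, from *Pik3c2a*, a class II kinase (−0.17), to *Becn1*, a subunit of Vps34 complexes (0.07). Of the PI 4-kinases and PIP kinases, 7 of 9 were higher, with a median of 0.05, from *Pi4ka* (−0.10) to *Pip5k1b* (0.21). Of the 3-phosphatases, which include the myotubularin family, 3 of 13 were higher and 10 lower, with a median of −0.05, from *Mtm1* (−0.14) to *Mtmr3* (0.08). None of these estimates passed the test.

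Of the remaining 4- and 5-phosphatases and SAC phosphatases, 5 of 12 were higher and 7 lower, from *Inpp5j* (log2 fold change −0.56) to *Inpp5f* (0.13). *Inpp5j* was the one gene whose groups did not overlap, but at 13, 12 and 11 counts in WT and 7, 13 and 5 counts in *Slc37a2* KO libraries it was barely detected (edgeR adjusted p = 0.969). Of the 16 proteins that read or depend on phosphoinositides, 12 were higher and 4 lower, with a median of 0.03. The highest estimate was that of *Snx10* (0.27), a sorting nexin needed for the ruffled border of osteoclasts, and none of the 16 passed the test.

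**Figure D4:**
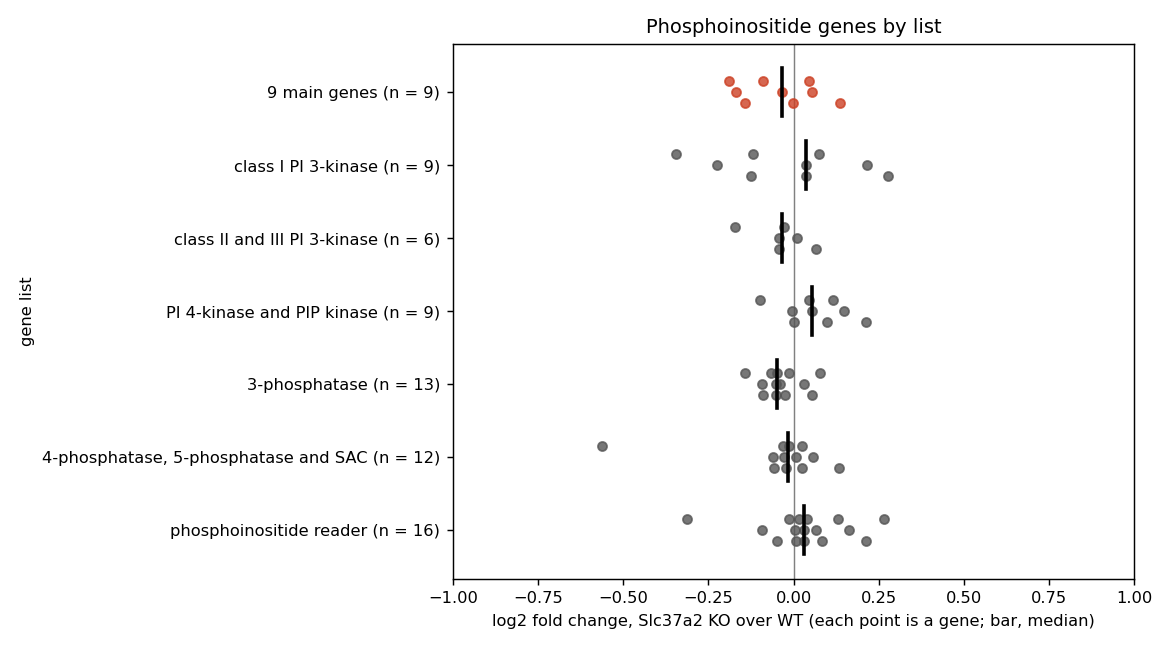
Log2 fold change, *Slc37a2* KO over WT, of each tested gene (points) in the 9 genes described above (red) and in the 6 lists of other phosphoinositide genes (grey), with the median of each list as a bar. Medians lie between −0.05 and 0.05, and *Inpp5j* is the point furthest from 0, at −0.56.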

How the data were processed

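The authors deposited whole-number read counts per gene for 6 libraries, not normalized, beside their own edgeR comparison (fold changes, likelihood ratios, p-values and FDR), which was not used, as was a list of its first genes. The submitters' processing notes name bcl2fastq 2.20.0.422, edgeR 3.30.3 and mm10. The aligner, counting tool, annotation and read length were not given in the sources used here. Columns were assigned to genotypes by their headings, and 0 belonged to other samples. The labels call the libraries of a genotype biological replicates, and each column has its own animal number.

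The tests ran in edgeR 4.0.16 (R 4.3.3), with low counts removed by filterByExpr, libraries scaled by TMM, and genotype alone in the quasi-likelihood fit (glmQLFit, glmQLFTest). The Benjamini-Hochberg method adjusted p over the 13483 genes left. The SE was derived as the absolute log2 fold change over the square root of F, the statistic of the quasi-likelihood test. The 95% intervals are the estimate plus or minus that SE times a t quantile (prior degrees of freedom 2.35). Log2 CPM used a prior count of 2. DESeq2 1.42.0 and other scalings, filters and left-out libraries were alternatives. On simulated data with a log2 fold change of 1, the test recovered 95 of 193 changed genes (13289 tested, 6 false calls), and 94.9% of intervals held the true value. At a log2 fold change of 2 it recovered 168 of 192 (13270 tested, 12 false calls), and 95.5% of intervals held the true value. Each gene was simulated independently, so patterns that many genes share across libraries were not covered. These rates need not hold for the real libraries. Sequences came from GENCODE and RefSeq (GRCm38), read with Python 3.11.15 and Biopython 1.88.

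The 9 genes, the gene lists and the tests were chosen with earlier results of these data known. Named were the 9 genes and *Slc37a2*, the extremes and separated genes of each list, the 3 genes nearest in pattern to each of the 3 most variable, and markers. The lower extreme of a list is not reported here. Of the marker lists, the 10 proliferation genes summed to 829 to 1197 CPM in WT and 532 to 1163 CPM in *Slc37a2* KO libraries. *Cd68*, *Csf1r* and the osteoclast markers named were chosen after their values were seen.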

Additional observations from a re-analysis of the deposited data

How the results depend on the processing

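Of 117 values of the 9 log2 fold changes under alternative settings, 109 kept their direction, 8 reversed and 0 were called (adjusted p from 0.264 to 1.00, edgeR and DESeq2, Benjamini-Hochberg). The reversals were of estimates near 0. *Inpp5d* turned to 0.0084 with upper quartile scaling, 0.017 with size factors from DESeq2 and 0.016 in DESeq2's Wald test, and ran from −0.028 to 0.039 with a library left out. With a library left out, *Pik3c3* ran from −0.049 to 0.0048, and the log2 ratio of *Inpp4a* over *Inpp4b* changed by −0.19 to 0.035. The number of genes called, and of genes past both limits of the study, was 2 (*Slc37a2* and *En2*, a gene outside the pathway) with no filter, with edgeR's likelihood ratio test and with DESeq2's Wald test.

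Genes whose groups did not overlap numbered 1012 with no filter, and 954 to 5657 with a library left out. A smaller group separates more easily, and the number rose with every library left out. Of the 9 genes, 0 to 4 separated with a library left out. Without *Slc37a2* KO library L078 these were *Inpp4b* (lower) and *Fig4*, *Vac14* and *Pip4k2a* (higher), beside 41.6% of all tested genes. Without WT library L082 they were *Inpp4a*, *Pik3c3* and *Pik3cd* (lower), beside 16.4%. The cause was not tested. Of the 581 separated genes, 202 were higher and 379 lower, against 289 and 248 with upper quartile scaling. The count of the 9 with an interval inside a change of 1.5 times fell from 9 to 6 without L078. It was 7 without L082 and with the letter of the animal number as a term. It was 8 without K090, L080 or L081 and with edgeR's likelihood ratio test. Over all tested genes, 7662 of 13585 intervals lay inside without L078 and 7302 of 13625 without L082, beside 8240 of 13483 in the main fit.

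No paired analysis was possible because the columns of the count table carry animal numbers and no replicate numbers. This concerns pairs by replicate number: the letter that opens the animal number (K or L, with both genotypes in each) was fitted as a term, which called 0 of the 9 genes and reversed none.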
